A study of Caenorhabditis elegans with 2 samples.

Results

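The 33 genes described here encode subunits of the 26S proteasome of Caenorhabditis elegans, and they were taken as a list of named genes, 33 of 19973 nuclear protein-coding genes. The core particle has 14 of them (the alpha subunits pas-1 to pas-7 and the beta subunits pbs-1 to pbs-7). The regulatory particle has 19 (the ATPases rpt-1 to rpt-6 and 13 rpn- genes). JUN-1 is a bZIP transcription factor related to mammalian Jun, a partner in AP-1 dimers. Its binding was mapped by chromatin immunoprecipitation and sequencing in whole L1 larvae of mixed sex. The animals were of strain OP234, which has the unc-119(ed3) III mutation and the wgIs234 insertion that supplies the eGFP-tagged jun-1. All libraries came from this 1 strain and stage, as 2 biological replicates of 1 group, so no second condition was compared. The labels give jun-1 as the antibody target, and the sample description names eGFP-jun-1. The values are therefore taken as those of the tagged copy, in all tissues of the larva together.

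The proteasome degrades proteins that carry ubiquitin. Its core is a barrel of stacked rings, in which alpha subunits form the gated ends and beta subunits hold the proteolytic sites. The regulatory particle caps the barrel, and its base of ATPases unfolds the substrate while its lid removes the ubiquitin chain. In worms the bZIP factor SKN-1 is known to induce proteasome genes when proteasome function is impaired.

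A gene was counted as having a promoter peak when the summit of a peak lay between 1000 bp upstream and 200 bp downstream of its annotated start. Peaks were thresholded by IDR, the irreproducible discovery rate, a measure of how well the ranks of a peak match between replicates, and 2305 remained. The replicate 1 list held 28101 peaks, the replicate 2 list 30000 and the pooled list 19646, background peaks included. The signal of a peak is the authors' value on a scale that may differ between lists, so values of different lists stand side by side and are ordered only within a list, and since the lists give no reads, library depth is unknown. All 2305 IDR-thresholded peaks were also the 2305 strongest peaks of the pooled list, with a lowest signal of 28.387, and the strongest pooled peak left out had 28.381. Membership of the list thus followed pooled signal. A listed peak need not rank alike in both replicates, as at rpt-1 (rank 1658 in replicate 1 and 7211 in replicate 2).

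JUN-1 peaks of the IDR-thresholded list lay at 14 of the 33 proteasome genes (42.4%, 95% Wilson interval 27.2% to 59.2%), while 8.42% of all protein-coding genes had one. The beta subunit genes had 3 of 7, the alpha subunit genes 2 of 7, the ATPase genes 3 of 6, the other base genes 2 of 4 and the lid genes 4 of 9. The sequences around 6 of these summits are given on the gene's own strand from the WBcel235 assembly (RefSeq copy), 60 bases to each side of the summit. They are the strongest regulatory and core sites, the weakest site, and the 3 other sites outside annotated UTRs that hold a word of the SKN-1 site. Capitals mark TGTCAT, the related word TATCAT or their reverse complements, and a run in lower case holds none of them. The rpt-2 stretch overlaps an exon of the noncoding RNA gene F29G9.10 by 109 bases.
rpn-3 at III:8447107-8447227, plus strand, the lid gene with the strongest peak: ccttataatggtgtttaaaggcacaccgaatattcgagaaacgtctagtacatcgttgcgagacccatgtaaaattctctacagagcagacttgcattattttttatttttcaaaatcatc
pbs-1 at IV:1709878-1709998, minus strand, the core gene with the strongest peak: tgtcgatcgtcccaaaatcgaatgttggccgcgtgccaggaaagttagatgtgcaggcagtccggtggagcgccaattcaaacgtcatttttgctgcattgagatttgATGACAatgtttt
rpt-2 at V:6017743-6017863, minus strand, a base ATPase gene: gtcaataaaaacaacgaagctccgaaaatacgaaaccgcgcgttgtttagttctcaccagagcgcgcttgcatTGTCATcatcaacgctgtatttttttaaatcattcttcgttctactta
rpt-6 at III:12370168-12370288, plus strand, a base ATPase gene: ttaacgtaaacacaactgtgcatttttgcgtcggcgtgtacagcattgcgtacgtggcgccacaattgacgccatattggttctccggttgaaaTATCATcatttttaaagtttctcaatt
rpn-2 at III:6198802-6198922, plus strand, a base scaffold gene: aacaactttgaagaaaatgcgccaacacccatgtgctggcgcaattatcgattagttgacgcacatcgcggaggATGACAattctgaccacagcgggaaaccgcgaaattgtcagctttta
rpt-1 at V:11982443-11982563, minus strand, the ATPase gene with the weakest peak: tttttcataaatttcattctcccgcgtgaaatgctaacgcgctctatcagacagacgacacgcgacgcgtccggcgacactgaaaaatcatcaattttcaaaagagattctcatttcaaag

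Lid genes held the strongest proteasome site. rpn-3, which codes for a structural lid subunit, reached 82.5 in the replicate 1 list and 37.3 in the replicate 2 list. In the IDR-thresholded list its peak (III:8446995-8447338) had a signal of 125.4 and rank 164, with the summit 186 bp upstream. No other proteasome gene came near it in replicate 1, where the next signal was 30.05 at rpt-2, but in replicate 2 pbs-1 was close with 36.98. rpn-11, the deubiquitinase of the lid, reached 26.1 in replicate 1, 34.7 in replicate 2 and 62.0 in the IDR-thresholded list (II:4044398-4044741, rank 671), with the summit 24 bp upstream.

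The other bound lid genes were weaker. rpn-9, a structural lid gene, reached 18.8 in replicate 1 and 18.3 in replicate 2 (38.7 in the IDR-thresholded list, II:11239048-11239391). At rpn-5, also structural, the values were 19.7 in replicate 1 and 12.1 in replicate 2 (30.4 in the IDR-thresholded list, II:4698283-4698626). In replicate 2 the rpn-9 peak had rank 1286, and the rpn-5 peak had rank 2516, below the 2305 strongest of that list. Of the 5 lid genes without an IDR-thresholded peak, rpn-12 was nearest to having one, with 14.8 in replicate 1, 13.6 in replicate 2 and 26.6 in the pooled list. rpn-7 had 16.9 in replicate 1, 4.41 in replicate 2 and 24.5 pooled. rpn-8, the partner of rpn-11 in the lid, had 8.91 in replicate 1 and 6.16 in replicate 2. rpn-6.1 had 1 weak peak, in replicate 1 alone (4.99), and its paralog rpn-6.2 had none in any list.

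In the base, 3 of the 6 ATPase genes and 2 of the 4 other genes had an IDR-thresholded peak. rpt-2 had 30.05 in replicate 1 and 18.8 in replicate 2 (49.4 in the IDR-thresholded list, V:6017631-6017974). rpt-6 had 29.6 in replicate 1 but 11.8 in replicate 2 (42.96 in the IDR-thresholded list, III:12370056-12370399). rpt-1 had 21.4 in replicate 1 (rank 1658 of 28101) and 6.96 in replicate 2 (rank 7211 of 30000), the lowest replicate 2 signal of the 14 bound genes. Its IDR-thresholded signal of 28.66 (V:11982331-11982674) was the lowest of the 14 genes. The ATPase gene rpt-3 stood just outside, with 17.6 in replicate 1, 7.43 in replicate 2 and 26.1 pooled. rpt-5 had 6.83 in replicate 1 and 8.17 in replicate 2, and rpt-4 had a single weak peak in replicate 2 (4.74).

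Among the other base genes, the scaffold gene rpn-2 had 22.2 in replicate 1 and 13.4 in replicate 2 (35.9 in the IDR-thresholded list, III:6198690-6199033). rpn-13, a ubiquitin receptor, had 19.6 in replicate 1 and 11.7 in replicate 2 (29.6 in the IDR-thresholded list, III:6342062-6342405). The second ubiquitin receptor, rpn-10, had only a weak peak of 4.86 in replicate 1. rpn-1, the other large scaffold, had 11.4 in replicate 1, 4.03 in replicate 2 and 19.5 pooled. The median signal over all peaks was 5.86 in the replicate 1 list and 4.85 in the replicate 2 list.

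**Figure D1:**
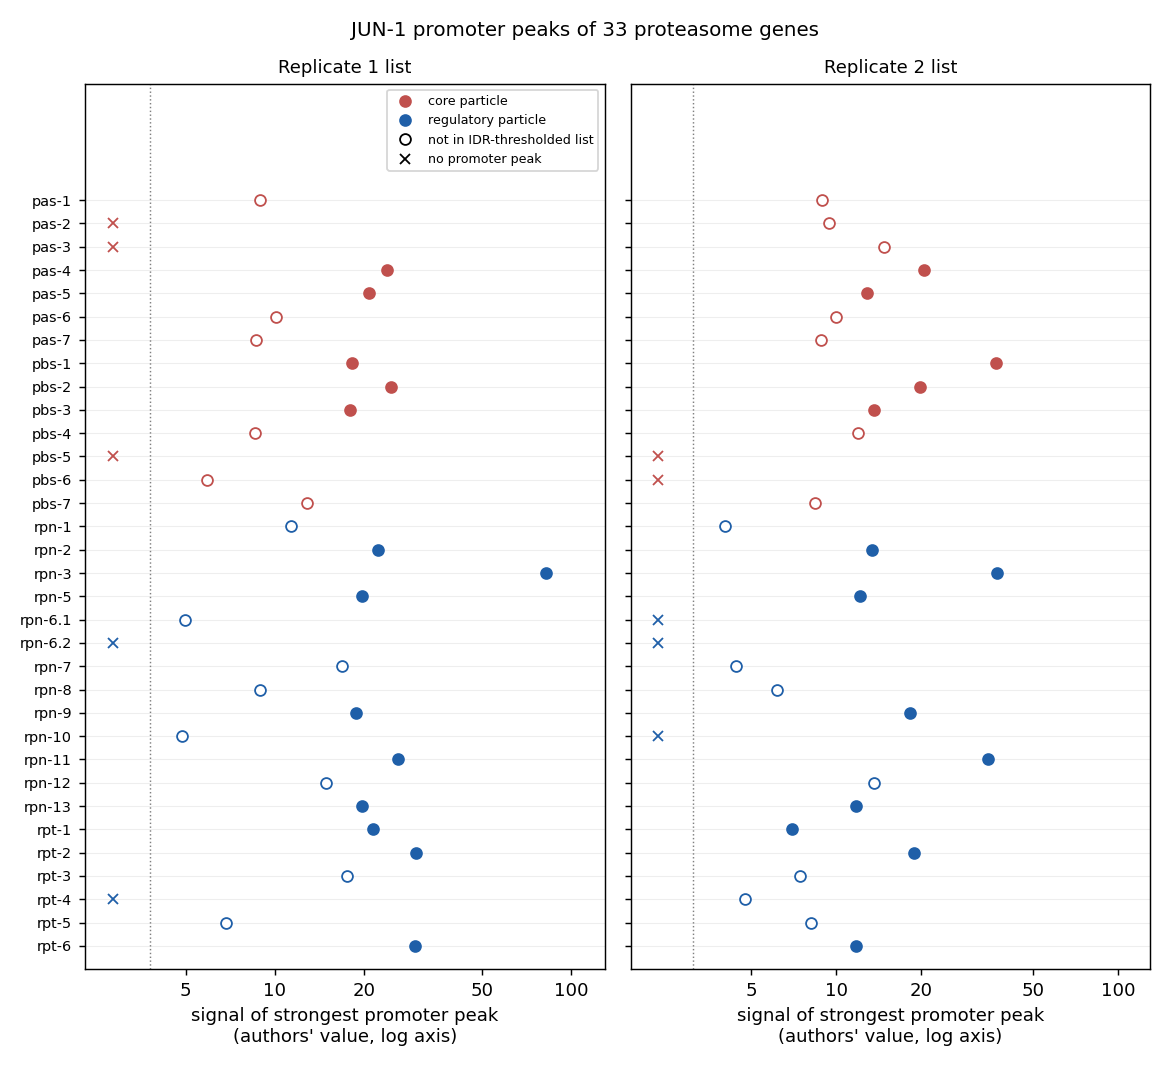
Signal of the strongest promoter peak of each of the 33 genes (rows) in the replicate 1 list (left) and the replicate 2 list (right), on a log axis, for the core (red) and the regulatory particle (blue). Filled points have an IDR-thresholded peak, open points do not, crosses have no promoter peak in that list, and the dotted line is the lowest signal of the list; rpn-3 stands at 82.5 in replicate 1 and pbs-5 and rpn-6.2 are crosses in both.

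In the core particle, the strongest and the weakest IDR-thresholded sites both lay at beta subunit genes, pbs-1 and pbs-3. By likeness to the yeast and human proteins, pbs-1, pbs-2 and pbs-5 encode the proteolytic subunits. pbs-1 had 18.2 in replicate 1 and 36.98 in replicate 2 (55.9 in the IDR-thresholded list, IV:1709766-1710109, rank 787). pbs-2 had 24.8 in replicate 1 and 19.8 in replicate 2 (46.6 in the IDR-thresholded list, I:12968402-12968745). pbs-5, which codes for the subunit with chymotrypsin-like activity, had no promoter peak in any of the 4 lists. pbs-3, a structural beta subunit gene, had 17.9 in replicate 1 and 13.6 in replicate 2 (28.8 in the IDR-thresholded list, II:4955410-4955753, rank 2262), and the summit lay in an exon of the upstream gene ulp-2. The remaining beta genes, also structural, had no IDR-thresholded peak: pbs-7 had 19.4, pbs-4 18.5 and pbs-6 7.96 in the pooled list.

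Of the alpha genes, which form the gated outer rings, pas-4 and pas-5 had IDR-thresholded peaks. pas-4 had 23.8 in replicate 1 and 20.5 in replicate 2 (44.8 in the IDR-thresholded list, I:8728469-8728812). The gene pas-5 was the sole member with 2 IDR-thresholded peaks, 908 bp (signal 42.0, I:10565270-10565613) and 355 bp (36.4, I:10565823-10566166) upstream. The nearer one was overlapped by peaks of 19.8 in replicate 1 and 12.8 in replicate 2, with summits at the same base. The farther one was overlapped by peaks of 30.4 and 29.1, whose summits lay 1124 bp and 1042 bp upstream, outside the window. Replicate 1 also had a promoter peak of 20.8 with its summit 891 bp upstream, within the bounds of the farther IDR-thresholded peak. pas-3 had 14.8 in replicate 2 and no promoter peak in replicate 1. pas-2 was likewise seen only in replicate 2 (9.45), and pas-1, pas-6 and pas-7 had pooled signals of 15.5, 15.3 and 17.1.

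The core had a lower share of genes with an IDR-thresholded peak than the regulatory particle, 5 of 14 (35.7%, Wilson interval 16.3% to 61.2%) against 9 of 19 (47.4%, 27.3% to 68.3%). The difference was -11.7 percentage points (95% Newcombe interval -40.2 to 20.8), which includes 0. Its direction turned with the replicate. In the 2305 strongest peaks of replicate 1, 5 core and 10 regulatory genes had a promoter peak, a difference of -16.9 points (8.56% of all protein-coding genes had one). In those of replicate 2 the counts were 6 core and 6 regulatory genes, a difference of 11.3 points (7.98% of all protein-coding genes). Among the 1152 strongest IDR-thresholded peaks 3 genes of each particle had one, and the difference was 5.64 points (4.73% of all protein-coding genes). Genes are not replicates of a condition, so the intervals are descriptions and no test was made.

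**Figure D2:**
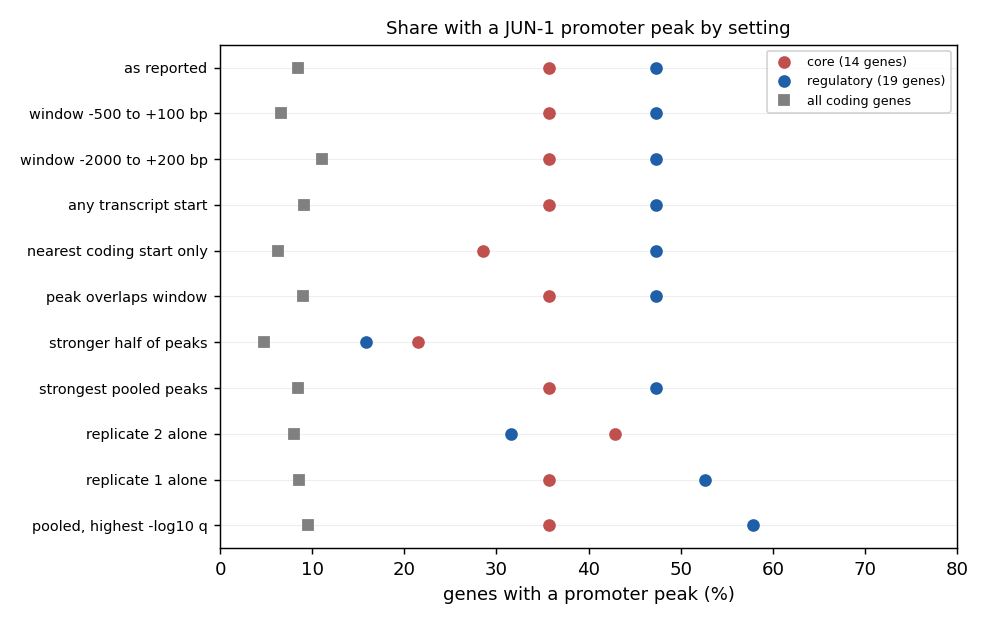
Percentage of core genes (red), regulatory genes (blue) and all protein-coding genes (grey squares) with a JUN-1 promoter peak, for each way of choosing peaks or windows. Core points lie to the left of regulatory points in all settings but the stronger peaks and replicate 2 alone, and all coding genes lie between 4.73% and 11.01%. The row of strongest pooled peaks holds the same peaks as the reported row.

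The genes of both particles that passed the IDR threshold had a median signal of 42.5 at their strongest promoter peak, against 47.9 for the 1681 protein-coding genes with a promoter peak. The median was 44.8 for the 5 core genes and 38.7 for the 9 regulatory genes, with ranges that overlapped (28.8 to 55.9 and 28.7 to 125.4). Counting every gene and placing those without a peak lowest, the median core and regulatory genes had 9.50 and 17.6 in the replicate 1 list. In the replicate 2 list they had 10.96 and 8.17, so the order of the particles differed between the replicates.

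Weaker peaks lay at most of the remaining genes. In the replicate 1 list 28 of the 33 genes had a promoter peak of some strength, where 40.7% of all protein-coding genes did. The replicate 2 list also gave 28 of 33, with 41.1% of all protein-coding genes. Both replicate lists held one at 25 of the 33 genes (75.8%), 10 core and 15 regulatory, against 26.6% of all protein-coding genes. This count did not require the same site in both lists. At pas-6, for example, the strongest peaks lay 194 bp upstream in replicate 1 and 455 bp upstream in replicate 2. The pooled list had one at 27 of 33 (33.7% of all protein-coding genes). These lists include background peaks, and a peak there is not a call.

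A stricter reading asked for a promoter peak among the 2305 strongest of each replicate list. This held for 10 proteasome genes (30.3%), against 6.17% of all protein-coding genes. They were pas-4, pas-5, pbs-1, pbs-2, pbs-3, rpn-2, rpn-3, rpn-9, rpn-11 and rpt-2, so all 5 bound core genes and 5 of the 9 bound regulatory genes met it. The other 4 bound regulatory genes, rpn-5, rpn-13, rpt-1 and rpt-6, ranked below the strongest 2305 in replicate 2. Of all 1681 protein-coding genes with an IDR-thresholded promoter peak, 1226 (72.9%) met it.

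**Figure D3:**
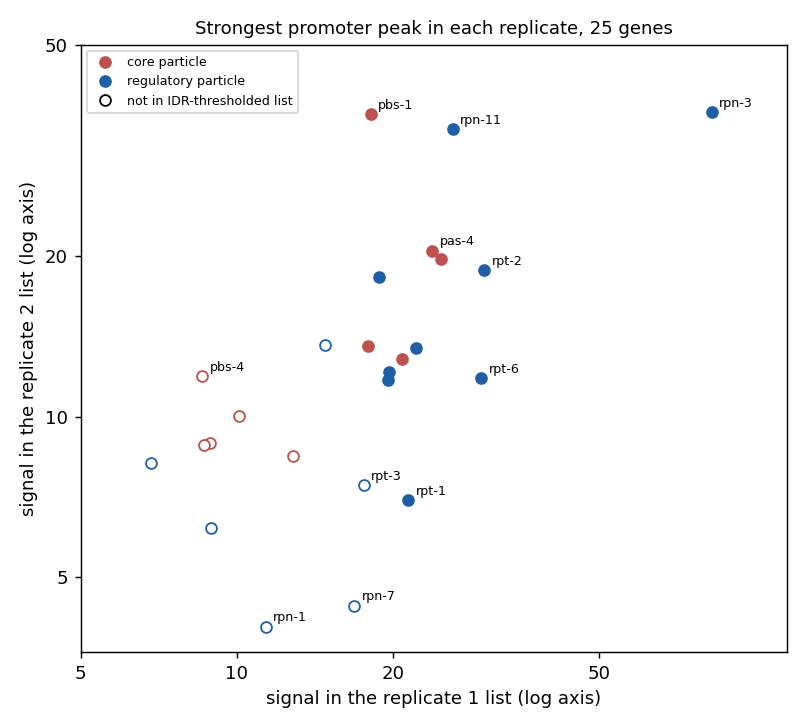
Signal of the strongest promoter peak in replicate 1 (x axis) and replicate 2 (y axis), log axes, for the 25 genes with a promoter peak in both lists; red is core, blue is regulatory, and open points have no IDR-thresholded peak. Each axis has its own scale, and the peaks of a gene in both lists need not lie at the same site. rpn-3 has the highest value on both axes, with 82.5 and 37.3, and rpn-1 the lowest in replicate 2, with 4.03.

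The edge of the IDR-thresholded list ran through the proteasome genes. Just inside lay rpt-1, pbs-3 (28.8), rpn-13 and rpn-5, and just outside lay rpn-12, rpt-3 and rpn-7. The pooled peaks of rpn-12 and rpt-3 had the highest −log10 q-value of the pooled list, 3.73, which 2666 pooled peaks shared. With all of those peaks counted, 16 of 33 genes had a promoter peak, 5 core and 11 regulatory, against 9.51% of all protein-coding genes. The other distances were long: the nearest IDR-thresholded summit to the start of any of the 19 unbound genes was 2941 bp away, with a median of 18052 bp.

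JUN-1 summits at proteasome genes lay upstream of the start, most of them within 400 bp. The strongest summit was 24 to 908 bp upstream, with a median of 189.5 bp, against 246 bp for all protein-coding genes with a promoter peak. In 13 of the 14 genes it lay within 400 bp upstream of the start, against 68.6% of the 1681 genes. Each of the 15 peaks was overlapped by a peak in both replicate lists. The IDR-thresholded list was derived from those lists, so this overlap is not separate support. The summits of the strongest overlapping replicate peaks were 0 to 84 bp apart, with a median of 24 bp, and were not compared with other peaks. At the farther pas-5 peak those replicate summits lay 1124 bp and 1042 bp upstream, away from its own summit at 908 bp.

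Of the 15 peaks, 8 lay also in the promoter window of a divergent coding neighbour, 3 of the 6 core peaks and 5 of the 9 regulatory peaks. Over all 1278 promoter peaks, 31.9% lay in the windows of more than 1 coding gene. The neighbours included rpb-3, a subunit gene of RNA polymerase II, 123 bp from the summit at pas-4, which lay 154 bp from the pas-4 start. eif-6, a translation factor gene, shared the pbs-2 peak, and hsp-110, a chaperone gene, shared the rpn-3 peak. scc-1, which encodes a cohesin subunit, shared the rpn-5 peak, and aps-1, a gene of the clathrin adaptor, the rpt-2 peak. K08D12.3, C23G10.7 and T06D8.9 shared those of pbs-1, rpn-2 and rpn-9. In 13 of the 14 genes the own start was the nearest coding start to the strongest summit, and pas-4 was the exception. Noncoding genes started nearer to some of these summits. The snoRNA gene F25H2.15 was 176 bp from the strongest pas-5 summit, against 908 bp for pas-5. Noncoding RNA genes were 67 bp away at pas-4, 72 bp at rpn-3 (own start 186 bp) and 48 bp at rpt-2 (own start 134 bp). Which gene of a pair a peak acts on was not tested.

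**Figure D4:**
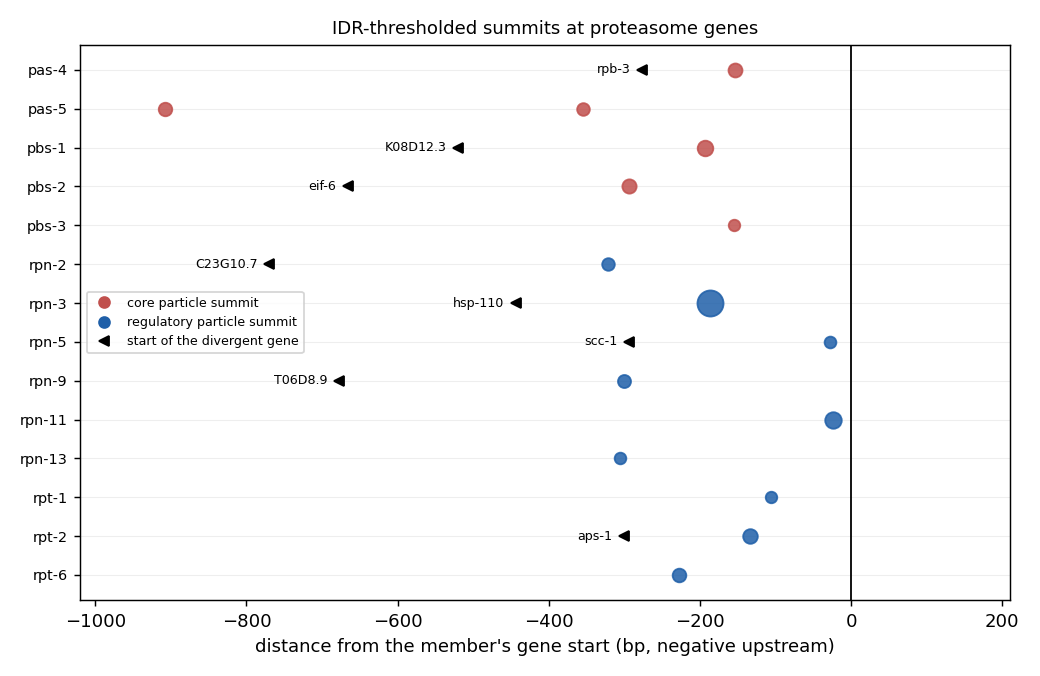
Position of the 15 IDR-thresholded summits against the start of the proteasome gene (bp, negative is upstream); circle width grows with the signal, red is core and blue is regulatory. Black triangles mark the start of the divergent gene that shares the peak, and all summits but the far one of pas-5 lie within 400 bp upstream.

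Bound and unbound members occurred with either arrangement of the upstream gene. Where the nearest upstream gene was divergent, 9 of 23 proteasome genes were bound, against 12.1% of all protein-coding genes so placed. Where it lay in tandem, 5 of 10 were bound, against 5.29%. Of the 8 genes with a tandem gene ending within 500 bp upstream, pbs-3, rpn-11 and rpn-13 were bound, and pas-1, pbs-5, rpn-6.2, rpn-10 and rpt-3 were not. Over all 4115 protein-coding genes so placed, 5.35% were bound.

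Known elements of JUN-1 and other factors were sought on both strands of the 200 bp around each of the 15 summits, and a match is a match of letters only. The AP-1 element, read as TGACTCA or on the other strand as TGAGTCA, was in none of the 15 windows, and it was in 4.90% of all 2305 windows. The CRE element TGACGTCA was in none either (1.52% of all windows), nor was the repeat GAGAGAGA (13.4%). A count of 0 in 15 windows allows a share of up to 20%, which covers the share of all windows for each of the 3. The 9-base element CTGCGTCTC was in 1 window, that of the nearer pas-5 peak, against 15.2% of all windows. The E-box CACGTG was in 1 window as well, at the same peak (7.90% of all windows), and the GATA word TGATAA in 1, at rpt-6 (20.4%). A count of 1 in 15 windows sets a share only loosely, so no depletion is read from it.

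Words of the SKN-1 site, 2 words counted together, were the element found most often at the proteasome summits. Over all 2305 windows the single GATA word was more frequent (20.4% against 19.05%). TGTCAT or the related word TATCAT was in 5 of the 15 windows (33.3%), those of pbs-1, rpn-2, rpn-11, rpt-2 and rpt-6, against 19.05% of all windows and 16.6% of the 1278 windows at coding promoters. The nearest to a summit was at rpt-2, a TGTCAT 15 bp away, as in the printed sequence. At rpn-2 TGTCAT stood 17 bp and 95 bp from the summit, at rpt-6 TATCAT stood 37 bp away and at pbs-1 TGTCAT 50 bp away. The match at rpn-11 was 28 bp downstream of the gene start. These are short words, and in the whole 1201 bp promoter window 29 of the 33 genes held one, as did 76.2% of all protein-coding genes. A count of 5 in 15 windows sets the share only loosely, so no enrichment is read from it. The proteasome windows were also lower in GC (median 37%, against 43.5% of all windows and 42% at coding promoters). Whether this bears on the count of these AT-rich words was not tested.

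**Figure D5:**
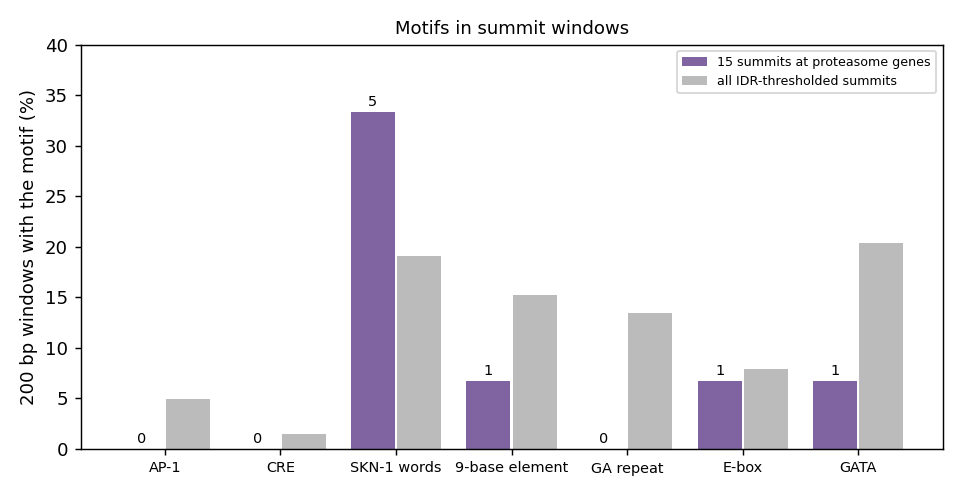
Percentage of 200 bp summit windows that hold each motif, at the 15 proteasome summits (purple, with the number of windows above the bar) and at all IDR-thresholded summits (grey); the 9-base element and the GA repeat are the longer words named in the text. SKN-1 words reach 33.3% of the proteasome windows, and AP-1, CRE and the GA repeat are at 0.

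Other genes of the ubiquitin and proteasome pathway were described from a list of 52 genes, chosen with earlier results of these data known. Of these, 19 had an IDR-thresholded promoter peak (36.5%, Wilson interval 24.8% to 50.1%), against 8.42% of all protein-coding genes. These genes are not replicates or a random draw, so the interval is a description and no test was made. The median signal of the 19 genes was 58.7. The strongest was at cdc-48.1, the ATPase that extracts ubiquitinated proteins, with 209 in replicate 1 and 118.5 in replicate 2. Next came wwp-1, a HECT-type ubiquitin ligase gene, with 111.2 in replicate 1 and 76.1 in replicate 2. eel-1, also of the HECT type, had 79.3 in replicate 1 and 42.02 in replicate 2. The ligase cofactor gene ufd-2 had 44.9 in the IDR-thresholded list, and the F-box gene sel-10 had 44.7.

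Among the conjugating enzyme genes, let-70 had 61.99 in replicate 1 and 69.3 in replicate 2. In the IDR-thresholded list let-70 had 121.4 (shared with klc-1), ubc-25 91.9, ubc-3 76.3 and ubc-7 63.1. ubc-25 is also the nearest upstream coding gene of pas-5. The ubiquitin gene ubq-2 had 94.5, in a peak shared with frg-1, and the cullin genes cul-4 and cul-3 had 50.96 and 36.8. Of the genes whose products bring substrates to the proteasome or work on it, ubql-1 had 112.5 in a peak shared with pdi-3. aip-1 had 51.9 (shared with ddx-17), the cofactor genes of CDC-48 ufd-3, ubxn-3 and ubxn-1 had 58.7, 47.2 and 37.5 (the last shared with tipn-1), and usp-14, a deubiquitinase gene, had 36.6 (shared with vnut-1). math-33, another deubiquitinase gene, had 37.5 (shared with erfa-3). rad-23, the divergent neighbour of rpn-12, had no IDR-thresholded peak, nor had dss-1, psme-3, ubh-4, skn-1, png-1 or ddi-1.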

How the data were processed

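JUN-1 ChIP-seq was done in whole L1 larvae in 2 biological replicates, with a library size range of 150 to 350 bp per the labels. The authors deposited narrowPeak-type lists on ce11 and ce10. Per the deposited notes on file provenance, each replicate list and the pooled list were called with the same control alignment, and the IDR-thresholded list was derived from them. The deposited signal per peak and the deposited −log10 q-value are the authors' values. How reads were aligned and peaks called, the threshold on IDR and how the signal was scaled: not given in the sources used here. Those lists hold no read counts, so depth and counting error are unknown. The shared control means that the replicate lists are not fully independent. Only the ce11 lists were used here. Chromosome names were matched to WBcel235, with genes from Ensembl release 115.

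From these lists the summits in promoter windows, ranks by signal, distances, shared windows and motif matches were computed with Python 3.11.15, numpy 2.4.6 and scipy 1.17.1. The search for peaks in windows was tested on simulated data and found the peaks planted inside windows. Shares carry 95% Wilson intervals. No test across samples was possible with 1 group, so members were described by counts beside all protein-coding genes. All 33 members were accounted for; named in full were those with a peak in the IDR-thresholded list, the unbound with the highest pooled signal or no peak at all, neighbours sharing a peak, and pathway genes with a peak. The members and lists were chosen with earlier results of these data known. Alternatives covered window, transcript starts, nearest start, overlap by 1 bp, stronger peaks, the pooled list and each replicate alone.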

Additional observations from a re-analysis of the deposited data

How the results depend on the processing

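The same 14 proteasome genes were found with promoter windows of 500 bp upstream to 100 bp downstream and of 2000 bp upstream. The 14 genes were also found with the starts of any transcript (9.07% of all protein-coding genes) and with any overlap of peak and window (9.05%). The strongest pooled peaks are the same 2305 peaks as the IDR-thresholded list, so that setting could only repeat the 14 genes. Giving each summit to its nearest coding start left 13 of them, without pas-4 (6.25% of all protein-coding genes had a peak). With the 1152 strongest IDR-thresholded peaks the counts were 6 in all, 3 core and 3 regulatory, and the difference between core and regulatory shares turned to 5.64 points. Leaving out a replicate gave differences from -16.9 to 11.3 points and counts from 12 to 15, with replicate 2 alone at the lower count. The alternative with all pooled peaks of the highest −log10 q-value, chosen after seeing the data, gave 16. Of 21 motif shares recomputed in other windows or in the stronger peaks, 15 stayed within the interval of the reported share. Among these, the shares of AP-1, CRE and GAGAGAGA were 0 in every setting. In narrower windows and in the stronger peaks they could only be 0. The 6 that moved were shares of the E-box, GATA and CTGCGTCTC words, each found in 1 window of 200 bp. In 400 bp windows GATA words were in 33.3% of the proteasome windows and 34.6% of all windows. No paired analysis was possible because there is 1 group. The unknown depth limits what can be said of genes without a peak.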

Other observations

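The 15 summit windows at proteasome genes had a median GC content of 37%, with a range of 32% to 43%, against 43.5% over all 2305 windows and 42% over the 1278 windows at coding promoters. The median was 39.75% in the 6 core windows and 35.5% in the 9 regulatory windows. In whole promoter windows of 1201 bp, the AP-1 element was found in 1 of the 33 genes (rpn-8, which had no IDR-thresholded peak), against 11.7% of all protein-coding genes. The CRE element was found in 1 gene (pbs-2), against 5.89%, and GAGAGAGA in none, against 8.70%. A count of 0 of 33 allows a share of up to 9.09%. A count of 1 allows a higher share still, so no depletion is read from these counts.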
